A study of Drosophila melanogaster with 12 samples.

Results

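Insulin and TOR signalling was followed through 8 genes, *InR*, *chico*, *Lnk*, *ImpL2*, *foxo*, *Tor*, *S6k* and *Thor*, in the tracheal system of *Drosophila melanogaster*. They were found by exact symbol among the 17697 genes of each library, and all 8 were present. The search used symbols and no measured value, but the genes had been picked with earlier results of these data known. In flies, insulin-like peptides bind the insulin receptor, which signals through adaptor proteins to PI3-kinase and Akt. This signal keeps the transcription factor Foxo out of the nucleus and feeds the TOR kinase, which drives protein synthesis and growth when food is plentiful. In larvae, the growth of tracheal terminal branches is known to respond to insulin signalling.

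RNA was read in 4 libraries each of adult tracheae, larval tracheae and whole flies, all of the *white* mutant strain w1118, which the labels call wild type and which carried no further allele or treatment. Adult tracheae were dissected by hand from the head, thorax and abdomen of females 5 to 7 days old, and larval tracheae from mid-stage larvae of instar 3 and both sexes. Whole flies were intact females of the adult age. Each library pooled 3 animals, so its values are averages over those animals, and p-values measure the spread between such pools. Larval tracheae and whole flies differ at once in tissue, stage and sex, and adult and larval tracheae in stage and sex, and these cannot be told apart.

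Adult trachea libraries held 5139980 to 14962142 gene reads, larval trachea libraries 5017919 to 8169848, and whole-fly libraries 5397732 to 9880844. The tissue was checked against markers because letters in the file names can be read as other groups, and the markers followed the sample titles. Summed RPKM (exon reads scaled to exon length and library depth) over 10 tracheal markers came to 24.98 to 62.9 for adult tracheae, to 608 to 1765 for larval tracheae and to 9.34 to 23.5 for whole flies. *trh*, which sets tracheal fate, was at 2.32 RPKM on average in adult tracheae, 4.77 in larval tracheae and 0 in whole flies. Whole flies had exon reads on each of the other tracheal markers. One of them, *kkv*, averaged 0.0634 RPKM in adult tracheae and 0.180 in whole flies, on 18 and 24 exon reads in all. These libraries overlapped, and the difference was not significant (edgeR, adjusted p = 0.498). Markers of other tissues were also read. The sum of 9 fat body markers was 354 to 912 RPKM in adult tracheae, against 102 to 351 (larval tracheae) and 219 to 249 (whole flies), and that of 6 haemocyte markers was 52.8 to 121, against 8.75 to 20.8 (larval tracheae) and 9.18 to 18.9 (whole flies). For 6 midgut markers the sum was 1609 to 11812 RPKM (adult tracheae), 7.19 to 72.8 (larval tracheae) and 41966 to 46343 (whole flies), and for 7 muscle markers 286 to 755 (adult tracheae), 16.8 to 367 (larval tracheae) and 189 to 319 (whole flies). The sum of 10 ovary and eggshell markers was 3610, 259, 64.2 and 11536 RPKM in adult trachea replicates 1 to 4, against 0.632 to 5.50 (larval tracheae) and 7850 to 12935 (whole flies). Adult trachea replicate 4 correlated best with whole flies (median over the 4 whole flies of r across genes, 0.847) and replicate 3 least (0.613). The part of these tissues in the results was not tested, and in bulk RNA fewer cells of a type and less RNA per cell cannot be told apart.

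Transcripts of the receptor *InR*, its substrate *chico*, the secreted binding protein *ImpL2*, *foxo* and the translational repressor *Thor* exceeded their whole-fly levels in adult tracheae, by 3.13-fold (*foxo*) to 15.9-fold (*chico*). Thus 5 of 8 genes were called higher and 0 lower, against 16.7% of the 10234 genes tested called higher, 8.05% lower and 24.8% in either direction. Calls needed an adjusted p (Benjamini-Hochberg, over every gene in the fit) under 0.05 together with a change of more than 1.5-fold. Changes below are log2 fold changes of scaled gene reads, and levels are RPKM. Against larval tracheae, 2 of the 8, *Thor* and *ImpL2*, were called higher in adult tracheae and 0 lower, beside 18.2% higher, 9.03% lower and 27.2% in all among 10239 genes. In larval tracheae against whole flies, 5 of 8 were called higher, *InR*, *chico*, *ImpL2*, *foxo* and *S6k*, and 0 lower, beside 22.9% higher, 27.5% lower and 50.4% in all among 9944 genes. The 2 comparisons with whole flies share those 4 libraries, and the 2 with adult tracheae share theirs. The median log2 fold change of the 8 was 2.32 for adult tracheae against whole flies, 0.32 for adult against larval tracheae and 1.34 for larval tracheae against whole flies, beside 0.13, 0.16 and -0.24 over all genes tested. Between libraries the groups did not overlap in scaled gene reads, with the first group above, for 3 genes in adult tracheae against whole flies, where 17.3% of all genes lay wholly above and 30.6% did not overlap in either direction. In adult against larval tracheae this held for 1 gene (19.5% above, 31.8% in either direction), and in larval tracheae against whole flies for 4 genes (22.0% and 49.3%). Among those 4, *foxo* overlapped in RPKM, which leaves intron reads out.

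**Figure D1:**
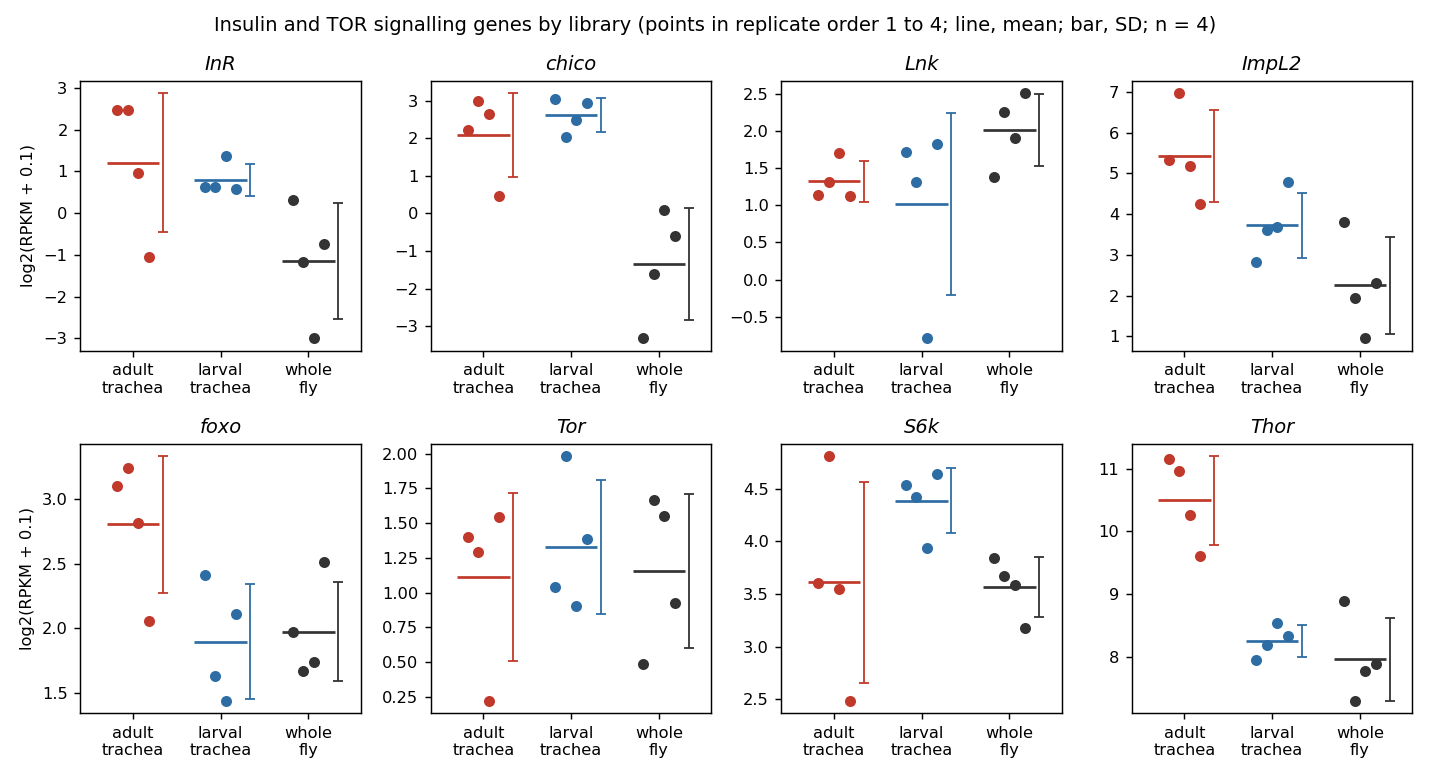
Levels of the 8 genes as log2(RPKM + 0.1) in each of 12 libraries; columns are adult trachea, larval trachea and whole fly, points are libraries in replicate order, horizontal lines are means and bars the SD (n = 4). *Thor* in adult tracheae (776 to 2282 RPKM) lies above all other libraries, and *chico* in both tracheal groups lies above whole flies.

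*InR* (FBgn0283499, chromosome 3R from 21570248 to 21619321 on BDGP6, minus strand) encodes the insulin receptor. It was at 5.43, 5.41, 1.86 and 0.386 RPKM in adult tracheae, at 1.45, 1.43, 2.51 and 1.39 in larval tracheae and at 1.14, 0.347, 0.0245 and 0.502 in whole flies. Larval tracheae lay above every whole fly, while adult trachea replicate 4 lay within the whole-fly range. The adult trachea against whole fly change was 3.11 on the log2 scale (95% interval 1.22 to 4.997, edgeR, adjusted p = 0.0249). This call was lost without replicate 1 (adjusted p = 0.0587) or 2 (0.0597) of adult tracheae or 2 (0.0729) or 4 (0.0559) of whole flies. An offset for exon length also ended it (log2 fold change of 1.36, adjusted p = 0.208), as did limma on log2(RPKM + 0.1) (2.36, adjusted p = 0.0851). In larval tracheae it was 2.41 higher than in whole flies (95% interval 0.89 to 3.93, adjusted p = 0.0142), and 0.69 with the length offset (adjusted p = 0.420). Adult and larval tracheae differed by 0.79 (95% interval -0.57 to 2.15, adjusted p = 0.394), a difference that was called only without adult trachea replicate 4 (1.13, adjusted p = 0.0376) or without replicates 3 and 4 together (1.35, adjusted p = 0.0245).

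*chico* (FBgn0024248, chromosome 2L from 10242512 to 10247078, minus strand) encodes the insulin receptor substrate, the adaptor that links the receptor to PI3-kinase. Its values were 4.51, 7.81, 6.16 and 1.29 RPKM in adult tracheae, 8.10, 4.01, 5.51 and 7.49 in larval tracheae, and 0, 0.226, 0.973 and 0.566 in whole flies. Every tracheal library was above every whole fly, and whole-fly replicate 1 had no read on the gene. The change was 3.99 for adult tracheae against whole flies (95% interval 1.77 to 6.21, adjusted p = 0.0180) and 4.40 for larval tracheae against whole flies (95% interval 2.52 to 6.27, adjusted p = 0.00154). The first of these missed the threshold without whole-fly replicate 2 (adjusted p = 0.0565), and uniquely mapped reads put it at 5.96. Adult against larval tracheae gave -0.31 (95% interval -1.58 to 0.95, adjusted p = 0.745), with a positive sign in uniquely mapped reads (0.28). Only 34.6%, 22.4% and 6.82% of its exon reads in adult tracheae, larval tracheae and whole flies were uniquely mapped, 3 of 44 reads in whole flies. The antisense gene CR44995, which overlaps its exons in the annotation, had 0 reads in all 12 libraries, and what shared those reads was not tested.

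*Lnk* (FBgn0028717, chromosome 3R from 25888542 to 25893270, plus strand) encodes an SH2B family adaptor that acts with Chico at the receptor. Adult tracheae had 2.10, 2.39, 3.17 and 2.08 RPKM, larval tracheae 3.19, 2.38, 0.478 and 3.45, and whole flies 2.50, 4.64, 3.63 and 5.57. The groups overlapped, and larval trachea replicate 3 was the lowest library. No comparison was called. The log2 changes were -0.15 for adult tracheae against whole flies (95% interval -1.37 to 1.07), 0.16 for adult against larval tracheae (-1.34 to 1.66) and -0.21 for larval tracheae against whole flies (-1.55 to 1.14). All 3 intervals include changes larger than 1.5-fold.

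*ImpL2* (FBgn0001257, chromosome 3L from 4224006 to 4236147, minus strand) encodes a secreted protein that binds insulin-like peptides and lowers insulin signalling. In adult tracheae it was at 40.1, 125, 36.1 and 19.0 RPKM, in larval tracheae at 6.93, 12.1, 12.7 and 27.3, and in whole flies at 13.8, 3.76, 1.83 and 4.83. Adult tracheae lay above whole flies without overlap, while larval trachea replicate 4 lay above adult trachea replicate 4. Adult tracheae were 3.53 higher than whole flies (95% interval 2.00 to 5.06, adjusted p = 0.00660), a call that held in all 21 alternative settings. They were 1.78 higher than larval tracheae (95% interval 0.54 to 3.02, adjusted p = 0.0375), and this was lost without adult trachea replicate 1 (adjusted p = 0.0559), 2 (0.105) or 3 (0.0587) or larval trachea replicate 1 (0.0966), 2 (0.0914) or 3 (0.0913). Larval tracheae were 1.86 higher than whole flies (95% interval 0.50 to 3.21, adjusted p = 0.0275), lost without larval trachea replicate 4 (0.0887) or whole-fly replicate 2 (0.0692), 3 (0.0511) or 4 (0.0624) and by limma on log2(RPKM + 0.1) (0.0615). Haemocyte markers summed to 117, 121, 52.8 and 57.5 RPKM in adult trachea replicates 1 to 4, and *Hml*, a haemocyte gene, exceeded whole flies by 4.01 on the log2 scale in adult tracheae (adjusted p = 0.000654). Their part in the *ImpL2* values was not tested.

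*foxo* (FBgn0038197, chromosome 3R from 14056945 to 14087978, plus strand) encodes the transcription factor that insulin signalling holds in the cytoplasm. It was at 8.48, 9.36, 6.94 and 4.06 RPKM in adult tracheae, 5.22, 3.00, 2.61 and 4.21 in larval tracheae and 3.81, 3.09, 3.24 and 5.61 in whole flies. Adult trachea replicate 4 lay within the whole-fly range, and the larval and whole-fly values overlapped. By the fit to all gene reads, introns included, adult tracheae were 1.65 higher than whole flies (95% interval 0.69 to 2.61, adjusted p = 0.0218) and larval tracheae 1.24 higher (95% interval 0.40 to 2.09, adjusted p = 0.0197). The first call was lost without replicate 2 (adjusted p = 0.0599) of adult tracheae or 1 (0.0535), 2 (0.0754) or 3 (0.0742) of whole flies, with the length offset (0.121) and with limma on RPKM (0.204). The second was lost without larval trachea replicate 1 (0.0623) and with the length offset (log2 fold change of 0.53). Exon reads alone gave 0.56 for larval tracheae (adjusted p = 0.276), and limma on log2(RPKM + 0.1) gave -0.077. Intron reads made up 34.7% of the *foxo* gene reads in adult tracheae and 51.5% in larval tracheae, against 18.6% in whole flies. Adult and larval tracheae differed by 0.48 (95% interval -0.39 to 1.36, adjusted p = 0.419).

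*Tor* (FBgn0021796, named mTor in the Ensembl annotation, chromosome 2L from 13004480 to 13013197, plus strand) encodes the kinase of the TOR complexes. It was read at 2.53, 2.34, 1.06 and 2.82 RPKM in adult tracheae, 1.95, 3.85, 1.77 and 2.51 in larval tracheae and 1.30, 3.08, 2.82 and 1.80 in whole flies. The groups overlapped and no comparison was called. The log2 changes were 0.37 for adult tracheae against whole flies (95% interval -0.63 to 1.36), -0.32 against larval tracheae (-1.17 to 0.53) and 0.75 for larval tracheae against whole flies (-0.15 to 1.65). The first turned to -0.84 and the third to -0.67 with the length offset.

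*S6k* (FBgn0283472, chromosome 3L from 5797549 to 5810931, minus strand) encodes the ribosomal protein S6 kinase, which TOR activates. Adult tracheae had 12.03, 28.03, 11.6 and 5.48 RPKM, larval tracheae 23.2, 21.4, 15.3 and 24.9, and whole flies 14.3, 12.7, 11.9 and 8.93. All 4 larval libraries lay above all whole flies, whereas adult tracheae spanned both groups. Larval tracheae were 1.44 higher than whole flies (95% interval 0.91 to 1.98, adjusted p = 0.000629), a call that was lost with the length offset (0.46, adjusted p = 0.169). Adult tracheae differed by 0.78 from whole flies (95% interval -0.15 to 1.70, adjusted p = 0.187), called only without adult trachea replicate 4 (1.06, adjusted p = 0.0244), and by -0.56 from larval tracheae (95% interval -1.53 to 0.40, adjusted p = 0.391). With the length offset the adult trachea against whole fly difference turned to -0.33.

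*Thor* (FBgn0261560, chromosome 2L from 3478434 to 3479612, plus strand) encodes 4E-BP, the repressor of cap-dependent translation that TOR switches off and that Foxo induces. It stood at 2282, 1994, 1223 and 776 RPKM in adult tracheae, 246, 289, 373 and 323 in larval tracheae and 471, 157, 217 and 234 in whole flies. The lowest adult trachea library was above the highest library of either other group. Adult tracheae were 3.00 higher than whole flies (95% interval 1.97 to 4.02, adjusted p = 0.00242) and 2.35 higher than larval tracheae (95% interval 1.46 to 3.24, adjusted p = 0.00194). Both calls held in all 21 alternative settings, the 8 with a left-out library included. Larval tracheae differed from whole flies by 0.74 (95% interval 0.03 to 1.44, adjusted p = 0.0752). This was called without whole-fly replicate 1, the highest whole fly (1.25, adjusted p = 0.00186), and with the length offset (1.97, adjusted p = 0.000308). In level, *Thor* ranked above 99.6% of the genes in adult tracheae, 98.6% in larval tracheae and 97.8% in whole flies.

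**Figure D2:**
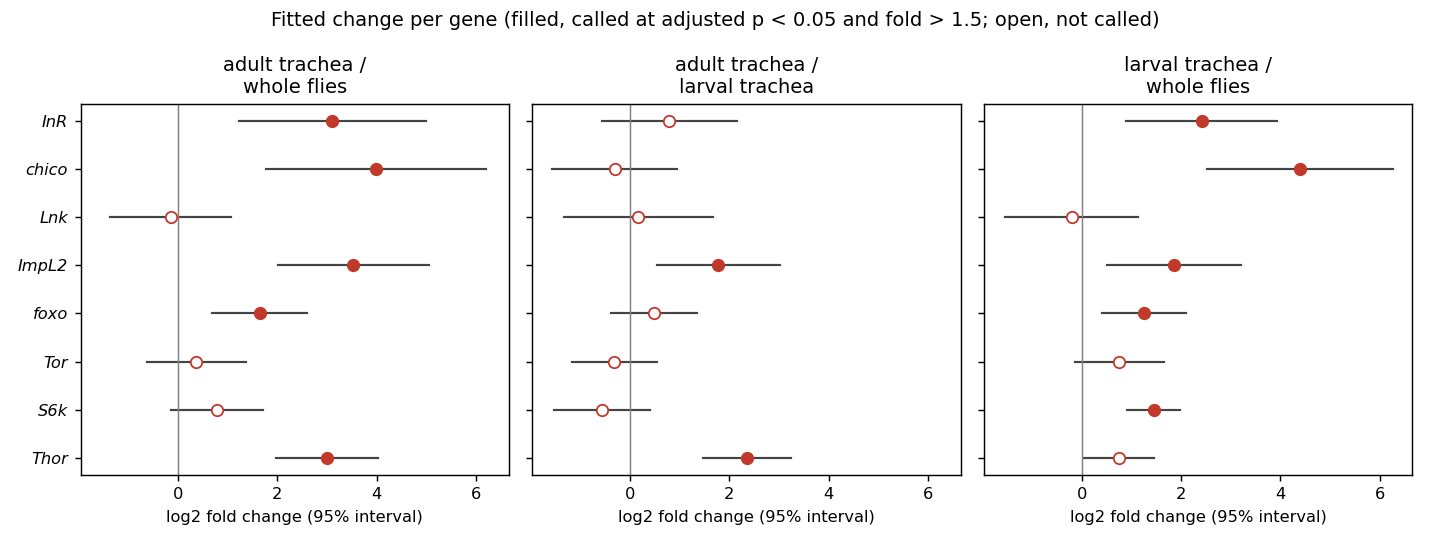
Fitted log2 fold change of the 8 genes with 95% intervals in the 3 comparisons; filled points passed the call rule and open points did not. *Thor* and *ImpL2* are filled in both comparisons of adult tracheae, and *Tor* and *Lnk* are open throughout.

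The levels of the 2 substrates of TOR were also compared within each library, where no scaling between libraries enters. The log2 ratio of *Thor* to *S6k* in exon reads per kilobase was 7.57, 6.15, 6.72 and 7.14 in adult tracheae, 3.41, 3.76, 4.61 and 3.70 in larval tracheae, and 5.05, 3.63, 4.19 and 4.71 in whole flies. Adult tracheae did not overlap with either group. It averaged 6.89 ± 0.60 in adult tracheae, 3.87 ± 0.52 in larval tracheae and 4.39 ± 0.62 in whole flies (SD, n = 4 each). Its difference of 2.50 for adult tracheae against whole flies, and of 3.03 against larval tracheae, each had p = 0.0286 in an exact two-sided permutation test, the smallest p that 4 against 4 libraries allow. After adjustment over the 6 ratio tests both stood at adjusted p = 0.0857 (exact permutation test), above the threshold. The adjusted test could not decide here, since it could pass only if other ratio tests also reached that smallest p. Larval tracheae and whole flies differed by -0.53 (exact permutation p = 0.257, adjusted p = 0.386). The 2 genes have 755 and 4885 bases of exon, and the ratio holds no correction for length. With the length offset, larval tracheae exceeded whole flies by 1.97 for *Thor* and 0.46 for *S6k*, the reverse order. Adult tracheae kept the order, at 3.42 and -0.33 against whole flies and 1.79 and -0.66 against larval tracheae.

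The log2 ratio of *InR* to *chico* averaged -0.94 ± 0.98 in adult tracheae, -1.88 ± 0.68 in larval tracheae and 0.20 ± 4.29 in whole flies (SD, n = 4 each). None of its 3 differences passed, with exact permutation p from 0.171 to 0.629. In whole flies it ran from -5.02 to 5.47, where *chico* had 0 to 25 and *InR* 2 to 70 exon reads in a library, and 0.5 read was added to every count.

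The reads behind the 8 genes differed in kind. *InR* had 1137 exon reads in the 4 adult trachea libraries, 502 in larval tracheae and 142 in whole flies, yet none of the reads in any library spanned a junction between its exons. Junction reads made up 25.5%, 25.2% and 22.1% of the *S6k* exon reads in adult tracheae, larval tracheae and whole flies, and 10.2%, 6.85% and 8.45% of those of *Thor*. *InR* is among the longest genes read here, with 11367 bases of exon, longer than 99.0% of genes, and *Tor* stands at 97.2% and *S6k* at 91.3%. *Thor*, with 755 bases, stands at 32.6%. The cDNA was amplified whole, and the part of transcript length in these values was not tested beyond the length offset. Reads on *ImpL2* may include some of CG46460, a gene that overlaps its exons on the same strand in the Ensembl annotation and is not among the genes analysed here.

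**Figure D3:**
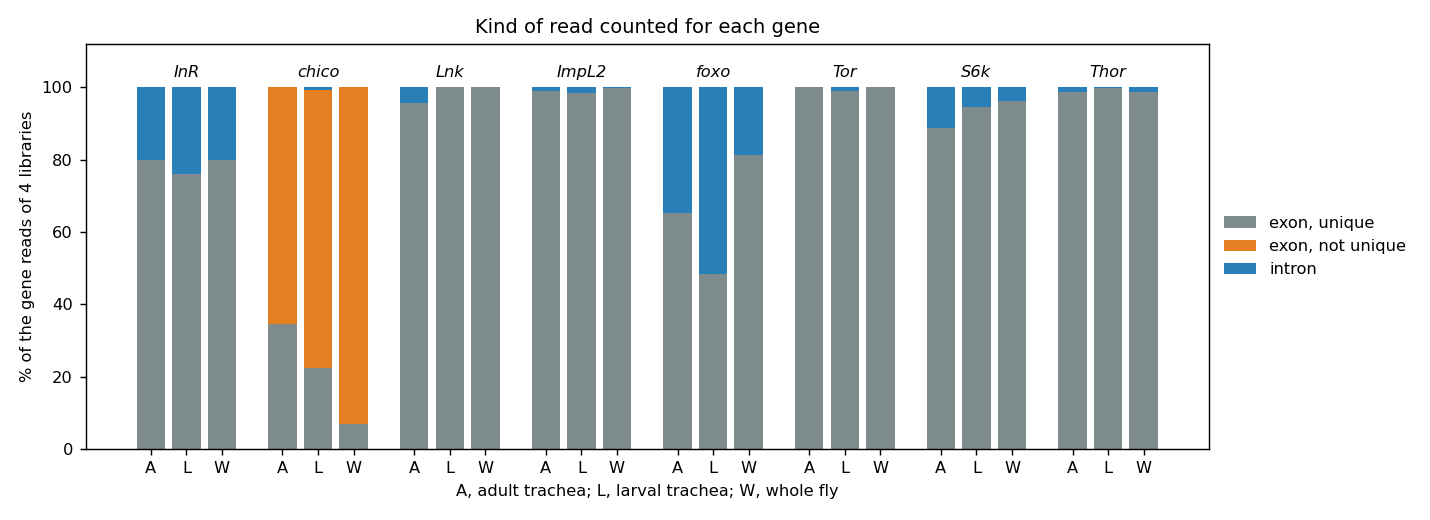
Share of the gene reads of each of the 8 genes that were uniquely mapped exon reads, exon reads not uniquely mapped, or intron reads, summed over 4 libraries per group (A, adult trachea; L, larval trachea; W, whole fly). The share not uniquely mapped stands out in *chico*, and the intron share in *foxo*, at 34.7% in adult and 51.5% in larval tracheae against 18.6% in whole flies.

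Deposited RPKM and scaled gene reads gave different changes against whole flies. They differ in the reads counted, the filter and the model as well as in the scaling between libraries, and these were not separated. The deposited RPKM, with no further scaling, put the median gene of larval tracheae at -0.87 on the log2 scale against whole flies, and TMM-scaled reads at -0.24, or at -0.18 where RLE size factors took the place of TMM. For adult tracheae against whole flies the medians were -0.37 and 0.13. Set against these medians, *S6k* in larval tracheae stood 1.68 above by either measure, *InR* 2.81 above by RPKM and 2.65 above by scaled reads, and *foxo* 0.79 and 1.48 above. *Lnk* in adult tracheae against whole flies stood at -0.31 and -0.28. The offset for exon length brought the larval *InR* value to 0.69 above the median and that of *S6k* to 0.46.

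**Figure D4:**
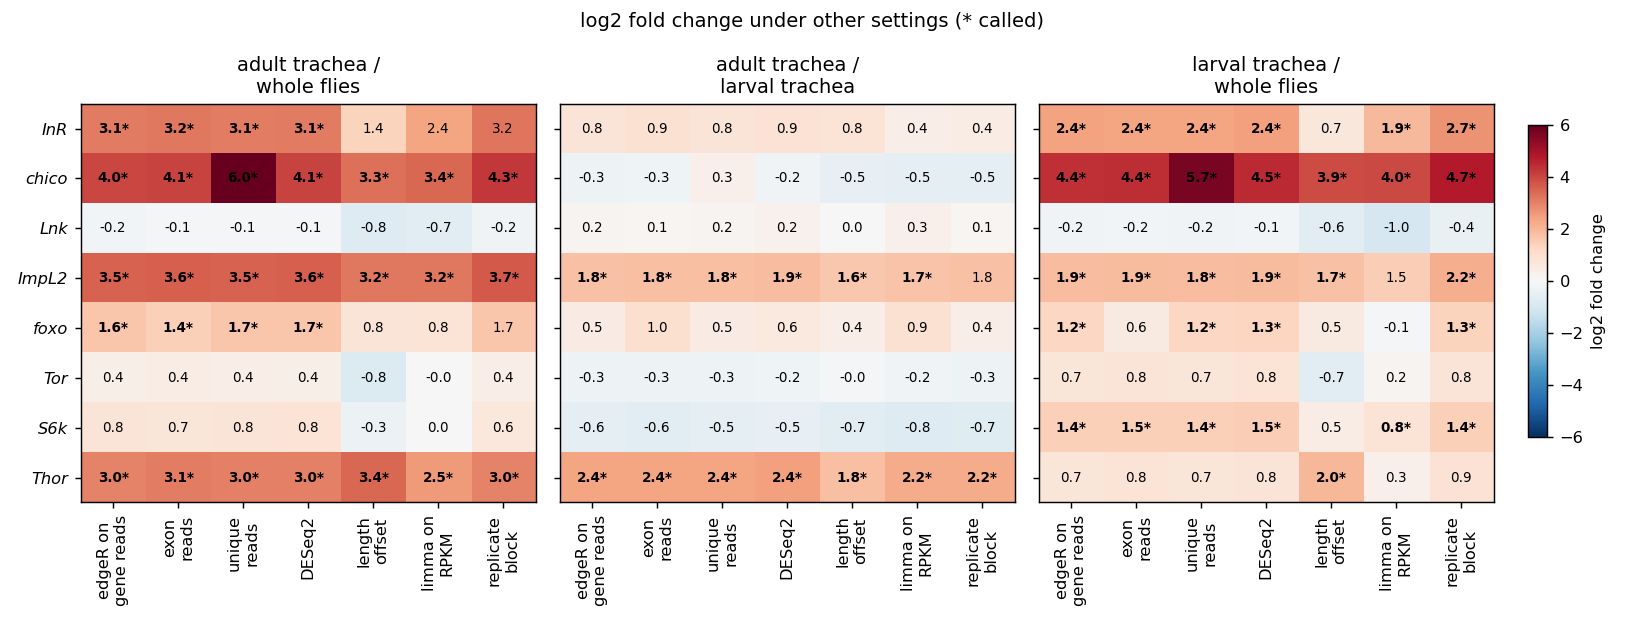
Log2 fold change of the 8 genes under the edgeR fit to gene reads and 6 other settings, in 3 comparisons; asterisks and bold type mark values that passed the call rule, and colour runs from lower (blue) to higher (red). *Thor* and *ImpL2* in adult tracheae against whole flies carry an asterisk in every column shown, while *InR* and *foxo* lose it with the length offset, with limma and with the replicate block.

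Reads on the ligand genes differed widely between genes and groups. *Ilp2*, which insulin-producing cells of the brain secrete, was at 11.3, 138, 77.3 and 0.804 RPKM in adult tracheae, had 0 reads in larval tracheae and was at 18.5, 12.1, 4.78 and 15.4 in whole flies. Adult tracheae spanned the whole-fly range on both sides, and neuron markers in adult trachea replicates 1 to 4 summed to 12.1, 36.2, 51.5 and 6.22 RPKM, against 0.342 to 1.34 (larval tracheae) and 1.52 to 2.98 (whole flies). The part of neural tissue was not tested. *Ilp2* was called higher in adult than in larval tracheae (adjusted p = 0.0114) and lower in larval tracheae than in whole flies (adjusted p = 0.00171). *Ilp3*, from the same brain cells, was at 4.92, 16.5, 17.3 and 0 RPKM in adult tracheae, against 3 reads in all in larval tracheae and 0.493, 5.93, 0.371 and 7.84 RPKM in whole flies. It was called in adult against larval tracheae (adjusted p = 0.0334), but not without adult trachea replicate 2 or 3 or larval trachea replicate 1, 2 or 3 (adjusted p up to 0.0806). In uniquely mapped reads neither *Ilp2* nor *Ilp3* was called in that comparison.

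*Ilp6*, which the fat body secretes, was at 8.71, 13.0, 5.04 and 1.72 RPKM in adult tracheae. It had reads in only 1 of the 4 larval trachea libraries (7 reads) and in 1 of the 4 whole flies (13 reads). Adult tracheae were called higher than whole flies (adjusted p = 0.0103) and than larval tracheae (adjusted p = 0.0123), in every fit with a left-out library, but in uniquely mapped reads neither call held, and 7.52% of its exon reads in adult tracheae were unique. *Ilp8*, the relaxin-like peptide by which damaged or slow-growing discs delay metamorphosis, was at 1.12, 0.159, 1.54 and 38.2 RPKM in adult tracheae, had 0 reads in larval tracheae and was at 75.6, 130, 116 and 70.0 in whole flies. Its high adult trachea library, replicate 4, was also the one with the highest ovary and eggshell sum, and the part of ovary tissue was not tested. It was called lower in larval tracheae than in whole flies (adjusted p = 6.27e-06) and higher in adult than in larval tracheae (adjusted p = 0.0335), the second not without adult trachea replicate 3 or 4 or any single larval trachea library (adjusted p up to 0.0612) and not by DESeq2.

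The remaining ligand genes were near the detection limit. *Ilp1* had no reads in any library, and *Ilp4* had 7 reads, all in larval trachea replicate 1. *Ilp5* had 30 exon reads in adult tracheae, 0 in larval tracheae and 11 in whole flies, and *Ilp7* 51, 0 and 61. *Sdr*, a secreted decoy receptor for insulin-like peptides, was at 2.18 ± 1.70 RPKM in adult tracheae, 0.488 ± 0.446 in larval tracheae and 2.32 ± 1.40 in whole flies (SD, n = 4 each) and was not called. A count of 0 in a library allows a level of up to 3 reads there, by counting error alone.

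Of 52 further pathway genes in 5 lists, 50 were tested in adult tracheae against whole flies, and 10 were called higher and 1 lower (22% in all, beside 24.8% of all genes, with a median log2 fold change of 0.099 beside 0.13). In adult against larval tracheae 10 of 50 were higher and 4 lower (28% beside 27.2%, median -0.0079 beside 0.16), and in larval tracheae against whole flies 12 of 47 were higher and 8 lower (42.6% beside 50.4%, median -0.081 beside -0.24). In all, 24 genes were called in at least 1 comparison.

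In the PI3-kinase branch, adult tracheae against whole flies had 2 higher and 0 lower of 8, or 25% beside 24.8% of all genes tested (median -0.24 beside 0.13). These were *Pi3K92E*, the catalytic subunit (2.33, adjusted p = 0.0396), and *sgg*, the fly GSK3 kinase (1.79, adjusted p = 0.0214). Each was lost with some library left out, *Pi3K92E* without replicate 1 or 2 of adult tracheae or 2 or 3 of whole flies (adjusted p up to 0.107), and *sgg* without replicate 2 of adult tracheae or 2, 3 or 4 of whole flies (up to 0.0667) and in uniquely mapped reads. By limma on log2(RPKM + 0.1), *Pi3K92E* (0.0562) and *sgg* (0.143) were not called. Adult against larval tracheae gave 1 higher and 1 lower (25% beside 27.2%), *Pdk1*, the kinase that activates Akt (1.38, adjusted p = 0.0209), and *Pi3K21B*, the regulatory subunit (-1.37, adjusted p = 0.0108). The *Pdk1* call was lost without adult trachea replicate 2 or larval trachea replicate 1 (up to 0.0633) and by limma on log2(RPKM + 0.1) (0.0912). In larval tracheae against whole flies 4 of 8 were higher, *Pi3K92E* (2.41, adjusted p = 0.0181), *sgg* (2.17, adjusted p = 0.000301), *Pi3K21B* (1.56, adjusted p = 0.00501) and *step*, a guanine nucleotide exchange factor of the cytohesin family (0.74, adjusted p = 0.0485), and 1 was lower, *Pdk1* (-1.71, adjusted p = 0.000608). Those 5 called were 62.5% of the list, beside 50.4% of all genes. Of these, *Pi3K92E* missed the threshold without larval trachea replicate 1 (0.05002), and *step* without replicate 1 or 3 of larval tracheae or 1 or 2 of whole flies (up to 0.135) and in uniquely mapped reads. With the length offset *sgg* was at -0.042 (adjusted p = 0.941) and *Pi3K92E* at 1.43 (0.147) in adult tracheae against whole flies, and *sgg* (0.355), *Pi3K92E* (0.0801) and *Pi3K21B* (0.141) also missed the threshold in larval tracheae, where *step* was at -0.18 (0.627) and, by limma on log2(RPKM + 0.1), at -0.045 (0.901).

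Among the 23 genes of the TOR complexes and their regulators, 4 were higher and 1 lower in adult tracheae than in whole flies, or 21.7% beside 24.8% of all genes tested (median -0.25 beside 0.13). *scyl*, a hypoxia-inducible inhibitor of TOR, was at 22.5, 44.0, 42.0 and 12.9 RPKM in adult tracheae, 70.1, 42.6, 63.7 and 68.4 in larval tracheae, and 2.37, 2.53, 0.535 and 3.53 in whole flies. It was 4.29 higher in adult tracheae (adjusted p = 0.00203) and 5.34 higher in larval tracheae (adjusted p = 1.29e-05) than in whole flies, and these calls held with every single library left out. Its partner *chrb* was 2.55 higher in adult tracheae (adjusted p = 0.0178), lost without replicate 3 of adult tracheae or 3 of whole flies (adjusted p up to 0.0527), and 2.21 higher in larval tracheae (adjusted p = 0.00414). *Iml1*, a subunit of the GATOR1 complex that restrains TOR, of adult tracheae exceeded whole flies by 2.15 (adjusted p = 0.0148) and larval tracheae by 1.80 (adjusted p = 0.0221). Those were lost without replicate 2 of adult tracheae or 2 or 3 of whole flies (up to 0.0599), and without adult trachea replicate 1 or 2 or larval trachea replicate 2 or 4 (up to 0.0659). *Lst8*, a subunit of both TOR complexes, was 1.44 lower in adult tracheae than in whole flies on the log2 scale (log2 fold change of -1.44, adjusted p = 0.0294), lost without replicate 1 of adult tracheae or 1, 2 or 3 of whole flies (up to 0.0801).

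*alc*, the beta subunit of AMP-activated kinase, was at 96.9, 61.2, 46.0 and 60.2 RPKM in adult tracheae, 7.45, 1.26, 8.65 and 5.31 in larval tracheae and 47.8, 31.2, 39.5 and 51.5 in whole flies. Larval tracheae were below every adult library. It was 3.45 higher in adult than in larval tracheae (adjusted p = 0.000997) and changed by -2.27 in larval tracheae against whole flies (adjusted p = 0.00204), both in every left-out fit, and its rise of 1.12 over whole flies in adult tracheae (adjusted p = 0.0327) was lost without adult trachea replicate 1 or any single whole fly (adjusted p up to 0.109). *Sesn*, an inhibitor of TOR that is also a Foxo target, was 2.22 higher in adult than in larval tracheae (adjusted p = 0.00766, every left-out fit). Of the 23 genes, 3 were higher and 2 lower in adult than in larval tracheae (21.7% beside 27.2%), the lower ones *PRAS40* (-1.59, adjusted p = 0.0197) and *Lst8* (-1.33, adjusted p = 0.0356). Without adult trachea replicate 2 or larval trachea replicate 1 *PRAS40* missed the threshold (up to 0.0624), and *Lst8* without adult trachea replicate 1 or 3 or larval trachea replicate 1, 2 or 3 (up to 0.0920). In larval tracheae against whole flies 3 were higher and 3 lower (26.1% beside 50.4%), among them *PRAS40* (1.92, adjusted p = 0.00560), *raptor*, which recruits the substrates of TOR complex 1 (-1.43, adjusted p = 0.0181), and *Sesn* (-1.17, adjusted p = 0.0463). The *raptor* call was lost without whole-fly replicate 3 (0.0661) and in uniquely mapped reads, which were 3.23% of its exon reads in larval tracheae and 6.70% in whole flies, and that of *Sesn* without any single library but larval trachea replicate 1 (up to 0.148). With the length offset *chrb* was at 1.17 (adjusted p = 0.119) and *Iml1* at 1.14 (0.0968) in adult tracheae against whole flies, and *chrb* at 1.04 (0.121) in larval tracheae. By limma on log2(RPKM + 0.1), *chrb* (0.0665), *Iml1* (0.113) and *alc* (0.190) missed the threshold against whole flies, and *Lst8* (0.0891) against larval tracheae.

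Of 9 genes downstream of TOR, adult tracheae against whole flies had 2 higher and 0 lower, or 22.2% beside 24.8% of all genes tested (median 0.80 beside 0.13). *REPTOR*, the transcription factor that acts when TOR is low, was at 6.38, 12.8, 5.55 and 1.93 RPKM in adult tracheae, 11.3, 6.52, 8.07 and 9.30 in larval tracheae and 1.38, 1.55, 0.644 and 0.825 in whole flies. Both tracheal groups lay above whole flies, by 3.13 in adult tracheae (adjusted p = 0.00382) and 3.49 in larval tracheae (adjusted p = 1.14e-05), and both calls held in every left-out fit. *Myc*, a driver of ribosome production, was 1.95 higher in adult tracheae (adjusted p = 0.0213), lost without replicate 2 of adult tracheae or 2 or 3 of whole flies (up to 0.0658). In larval tracheae it was 2.89 higher than in whole flies (adjusted p = 2.38e-05), and 1.35 higher with the length offset (0.00304). Of its exon reads, 1.31%, 1.29% and 1.26% were uniquely mapped in adult tracheae, larval tracheae and whole flies. *Maf1*, a repressor of RNA polymerase III, was 2.65 higher in larval tracheae than in whole flies (adjusted p = 0.00134) and changed by -1.36 in adult against larval tracheae (adjusted p = 0.0304), which was lost without adult trachea replicate 3 or larval trachea replicate 1, 2 or 3 (up to 0.0740). It was the only one of the 9 called in adult against larval tracheae (11.1% beside 27.2%). In uniquely mapped reads neither this call nor that of *Myc* in adult tracheae against whole flies held. Exon reads alone also ended this *Maf1* call. Intron reads made up 50.5% of the *Maf1* gene reads in larval tracheae and 33.99% in adult tracheae, against 9.03% in whole flies. The *Maf1* call in larval tracheae against whole flies held in every other setting, but at 1.56 by limma on log2(RPKM + 0.1) and 1.68 with the length offset. The part of intron reads in these changes was not tested. In larval tracheae against whole flies 5 of 9 were higher and 0 lower (55.6% beside 50.4% called either way and 22.9% higher), among them *REPTOR-BP*, the partner of REPTOR (0.997, adjusted p = 0.00171). The length offset left *Myc* at 0.36 in adult tracheae against whole flies (adjusted p = 0.566), and limma on log2(RPKM + 0.1) did not call it (0.123), nor *Maf1* in adult against larval tracheae (0.0651), nor *REPTOR-BP*, whose change it put at 0.42.

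Among 4 other Foxo targets, the lipases *bmm* and *Lip4* parted the adult from the larval tracheae. *Lip4* was at 36.4, 28.6, 14.6 and 23.7 RPKM in adult tracheae, 0, 0.0588, 0 and 0.155 in larval tracheae and 28.4, 18.3, 26.3 and 19.9 in whole flies. *bmm*, the triglyceride lipase, was at 14.8, 20.7, 6.75 and 7.73 RPKM in adult tracheae, 0.179, 0.743, 0.0818 and 0.904 in larval tracheae and 6.61, 4.94, 3.03 and 5.06 in whole flies. Larval tracheae were the lowest group for both genes, with 13 gene reads on *Lip4* in all. Adult exceeded larval tracheae by 6.91 for *Lip4* (adjusted p = 0.000227) and 3.75 for *bmm* (adjusted p = 0.000301), in every left-out fit. Larval tracheae against whole flies gave -6.26 for *Lip4* (adjusted p = 5.78e-05) and -1.83 for *bmm* (adjusted p = 0.0216, lost without whole-fly replicate 1 or 2, up to 0.0685). Intron reads made up 44.4% of the *bmm* gene reads in larval tracheae and 1.21% in whole flies, and 69.2% and 0.797% for *Lip4*. Limma on log2(RPKM + 0.1), which leaves introns out, gave -3.41 for *bmm* and -7.34 for *Lip4*. The part of intron reads was not tested. For *bmm* adult tracheae were also 1.85 above whole flies (adjusted p = 0.0154), lost without replicate 2 of adult tracheae or 2 or 3 of whole flies (up to 0.0538) and by limma on log2(RPKM + 0.1) (0.0854). Of the 4 targets, 1 was higher in adult tracheae against whole flies (16.7% of all genes were), 3 were higher in adult than in larval tracheae (18.2%) and 3 lower in larval tracheae than in whole flies (27.5%). In adult against larval tracheae 5 of 9 fat body markers were called higher and 1 lower, *to* (-5.31, adjusted p = 0.00173), 4 of 6 midgut markers and 3 of 7 muscle markers were higher and 0 lower, and their part was not tested.

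**Figure D5:**
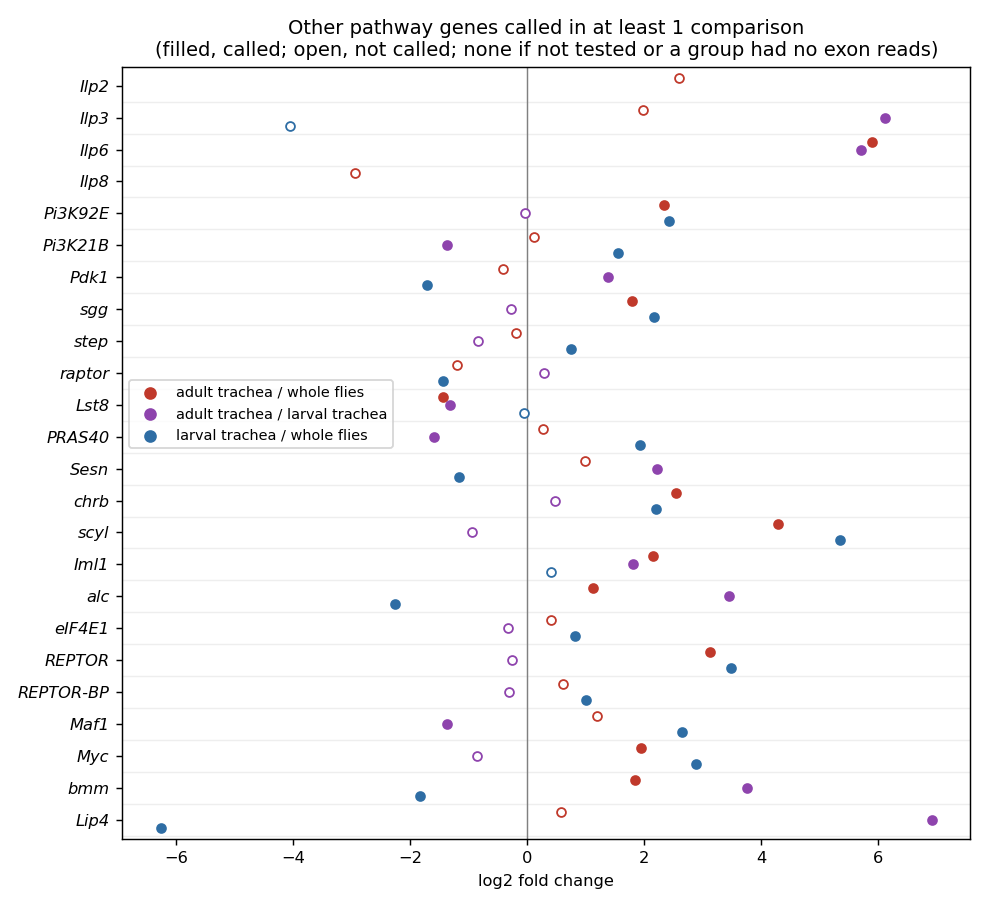
Log2 fold change of the 24 other pathway genes called in at least 1 comparison; points are the 3 comparisons, filled where called and open where tested and not called, and missing where the gene was not tested or a group had no exon reads. *scyl* and *REPTOR* are filled to the right of 0 for both tracheal groups against whole flies, while *Lip4* is filled right of 0 for adult against larval tracheae and left of 0 for larval tracheae against whole flies.

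For each of the 8 genes the 3 most similar profiles were sought over 12 libraries among 8889 genes with a mean RPKM of at least 1, by the root mean square difference of centred log2(RPKM + 0.1), where smaller is more alike. The nearest were *CG6115* to *Thor* (0.484), *Hml* to *ImpL2* (0.724), *CG11180* to *InR* (0.658) and *elB* to *chico* (0.655). Those of *foxo* (*MTF-1*, 0.260), *S6k* (*CG42674*, 0.265), *Tor* (*Trs20*, 0.241) and *Lnk* (*CG8042*, 0.396) were closer, but the profiles of these 4 genes also varied less, by 0.485 (*Tor*) to 0.790 (*Lnk*) about their own means, beside 1.24 for *Thor* and 2.00 for *chico*. The next most alike were *LManII* and *CG17574* for *Thor*, *CG17124* and *CG6115* for *ImpL2*, *Sox14* and *Socs36E* for *InR*, *CG5381* and *CG1607* for *chico*, *CG17360* and *ref(2)P* for *foxo*, *CG8677* and *Cul4* for *S6k*, *ema* and *eIF3c* for *Tor*, and *Rab30* and *Rbcn-3A* for *Lnk*.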

How the data were processed

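The deposited counts are whole reads for genes, exons and introns, total and uniquely mapped; the authors obtained them in the CLC Genomics Workbench (version not given in the sources used here) after mapping to BDGP6. Complete cDNA had been primed with oligo(dT), amplified by PCR and sequenced on a NextSeq 500, without molecular identifiers, so limits drawn from a count of 0 cover counting error only. The deposited RPKM was computed by the authors from total exon reads, exon length and gene reads. Deposited TPM was not used.

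Total gene reads were fitted in R 4.3.3 with edgeR 4.0.16 (TMM, quasi-likelihood F-test) per comparison of 8 libraries, with a minimum of 10 reads in 2 or more libraries. P-values were adjusted over all genes tested. Alternatives were DESeq2 1.42.0, RLE size factors, filterByExpr, no filter, exon or unique reads, 3 groups in 1 fit, a replicate block, a lowess exon length offset, limma 3.58.1 on log2(RPKM + 0.1) or (RPKM + 1), and left-out libraries. Ratios used exact permutation tests over all splits (numpy 2.4.6), with 0.5 read added because *chico* had no reads in 1 library. The fit was tested on simulated data with set log2 changes of 1 to 4, each in 48 to 50 of 9586 to 9845 genes. Over the 3 comparisons it recovered 0% to 4% of log2 changes of 1 and 20.4% to 40% of those of 2. Log2 changes of 4 were recovered at 66% to 85.7%. In the data 24.8% to 50.4% of genes were called, which makes the adjusted threshold less strict than in the simulation. The recovered shares therefore need not hold for these fits. A gene that was not called may still have changed.

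Members and lists were chosen with earlier results of these data known. Named are the 8 genes, every insulin-like peptide gene, per list and comparison up to 4 called genes with the largest change in each direction and at least 1 RPKM, and 3 similar genes per member. A further gene of the PI3-kinase list is not reported here and is left out of its counts. Positions come from the files on BDGP6. Replicates have no labelled batch.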

Additional observations from a re-analysis of the deposited data

Results flagged for a closer look

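In larval tracheae *InR* stood at 2.51 RPKM in replicate 3, and the other 3 libraries lay close together below it, from 1.39 to 1.45 RPKM. The gap exceeded Dixon's 95% critical share of the range for 4 samples. Of 30 groups of 4 libraries examined, this was the only 1, and chance flags about 1 in 20.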

How the results depend on the processing

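Of the 496 values of single genes under an alternative setting, 435 kept direction and side of the threshold, 40 no longer passed, 5 newly passed and 16 changed sign. For adult tracheae against whole flies the count of the 8 genes called, 5, was 3 with the replicate block, the 3 limma fits or the length offset, and 2 to 6 with a library left out (2 without whole-fly replicate 2 and 3 without adult trachea replicate 2). For adult against larval tracheae, 2 became 1 with all 3 groups in 1 fit, the block or limma without a filter, and 1 to 3 with a library left out. For larval tracheae against whole flies, 5 became 3 with the limma fits or the length offset, and 4 to 6 with a library left out. The log2 ratio of *InR* to *chico* in adult tracheae against whole flies was -2.87 to 0.63 with a library left out, positive without whole-fly replicate 1.

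Signs turned for *Tor* in adult tracheae against whole flies (-0.044, -0.027 and -0.044 with limma and -0.84 with the length offset) and in larval tracheae (-0.67, length offset), for *S6k* in adult tracheae (-0.33, length offset), for *foxo* in larval tracheae against whole flies (-0.077, -0.060 and -0.077 with limma) and for *chico* in adult against larval tracheae (0.28, unique reads). *Lnk* ran from -0.58 to 0.0033, from -0.34 to 0.36 and from -0.42 to 0.13 in the 3 comparisons with a library left out, and was -0.25 in adult against larval tracheae without adult trachea replicates 3 and 4. The causes were not tested.

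Over all genes, 2538 calls in adult tracheae against whole flies became 1552 with the block and 1329 to 3493 with a library left out. Of the other pathway genes, 11 calls became 7 with the block or with limma at a pseudocount of 1, 6 at 0.1, 5 when limma had no filter and 3 to 15 with a library left out, and 14 in adult against larval tracheae became 9 with limma at a pseudocount of 1, 8 when it had no filter and 8 to 13 with a library left out. Replicate numbers did not pair the libraries: same-numbered deviations correlated at -0.0893 to 0.0344, and 0, 0 and 1 of 8 libraries correlated best with their own number. Besides *InR* and *foxo* (adult tracheae against whole flies) and *ImpL2* (adult against larval tracheae), the block ended no call of the 8 genes, and of the other pathway genes named it ended those of *Pi3K92E*, *sgg*, *Lst8*, *alc* and *Myc* (adult tracheae against whole flies), *Ilp3*, *Pdk1* and *Lst8* (adult against larval tracheae) and *step*, *Sesn* and *bmm* (larval tracheae against whole flies). Depth limits *chico* and *InR* in whole flies, at 44 and 142 exon reads in all.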
